A study of Mus musculus with 3 samples.

Results

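The inhibitors and feedback brakes of NF-κB were followed in primary cultures of PyMT mammary tumor cells with and without RANK ligand (RL). With earlier results of these data known, the genes were chosen by function. They are the classical IκB proteins (Nfkbia, Nfkbib and Nfkbie), the atypical nuclear IκB proteins (Nfkbid, Nfkbiz and Bcl3), and the ubiquitin-editing brakes A20 (Tnfaip3), ABIN1 (Tnip1) and CYLD (Cyld). These are 9 of the 36799 genes and transcripts on the array, and they are measured by 13 of its 55681 probes. All 9 are among the 21743 genes and transcripts bright enough to be tested.

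The tumors came from 3 MMTV-PyMT mice, which carry the polyoma middle T oncogene under the mouse mammary tumor virus promoter and develop luminal mammary tumors. From each tumor, 1 culture received RL for 24 h and 1 culture was left untreated as the control, both in medium with serum, EGF, insulin and cholera toxin. The methods describe acinar cultures on Matrigel, with cells taken from RANK+/+ or RANK−/− tumor transplants. The deposited labels give the dose as 1000 µg/mL, while the methods give 1 µg/mL, added 24 h after plating. The labels give neither the strain and age of the mice nor the RANK genotype. Both RNAs of a tumor, each in its own dye, shared 1 Agilent array, so each of the 3 arrays gives a ratio of RL over control within 1 tumor. RL was in Cy3 for tumors 1 and 3 and in Cy5 for tumor 2, and no tumor has deposited arrays in both dye orders, although the methods mention dye swaps for each sample. There was a single treated and a single untreated culture of each tumor, so the spread between tumors is the only error available. Over all genes the log2 ratios of RL over control had a correlation (r) of 0.45 between tumors 1 and 3, and of −0.11 between tumor 2 and each of these.

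RANK is a receptor of the TNF receptor family, and its engagement by RL recruits TRAF adaptors and activates both arms of NF-κB signaling. In resting cells IκB proteins hold NF-κB dimers in the cytoplasm, and the IκB kinase complex marks them for degradation. Several of these inhibitors are themselves NF-κB target genes, so that activation of the pathway restores its own brakes, a loop that is best known for IκBα.

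All 13 probes were well above the local background in all 6 channels, and no member was saturated. The epithelial markers Epcam, Krt8, Krt18, Cdh1, Krt14 and Krt5 were also well above background in all 6 channels, whereas 0 of 3 B-cell markers and 2 of 4 T-cell markers were bright enough to be tested. All 6 myeloid and all 5 fibroblast markers were tested, and so were 2 of 3 endothelial markers. On the log2 scale of RL over control, the median of the epithelial markers was 0.10, −0.17 and −0.10 in tumors 1, 2 and 3, while Krt18 alone was at −0.73, 0.43 and −0.70. Krt18 was thus above 0 only where RL was in Cy5, and its mean was −0.33, or −0.14 with a dye term in the fit. The median of the myeloid markers was −0.11, 0.02 and −0.02, and that of the fibroblast markers was −0.30, 0.16 and −0.05. No marker of these lists passed an adjusted p of 0.05 (limma). At an unadjusted p under 0.05 none was higher, against 3.50% of all genes, and 2 were lower. These were the myeloid marker Cd68 (−0.35, −0.13 and −0.19 in tumors 1, 2 and 3) and the fibroblast marker Pdgfra (−0.38, −0.15 and −0.05). Both were below 0 in each tumor, as were 13.6% of all genes (2947 of 21721). The share of all genes lower at that p was not computed. In these bulk cultures, a change in the share of a cell type and a change in RNA per cell cannot be told apart, and the part of these shifts in the results below was not tested.

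In the comparison of RL with control, 0 of the 9 members passed an adjusted p of 0.05 by limma, a rule that called 0.00460% of all genes tested higher (1 of 21743) and 0.0230% lower (5 of 21743). At an unadjusted p under 0.05, 4 members were higher (Nfkbia, Nfkbie, Tnfaip3 and Tnip1), against 3.50% of all genes. The rank product, the call named in the study's methods, gave 2 members a proportion of false positives (pfp) under 0.05 for a higher value, Nfkbia and Nfkbie, against 0.170% of all genes (37 of 21721). With a dye term beside the RL term, which leaves 1 residual degree of freedom, limma called 4 members higher at an adjusted p under 0.05, again Nfkbia, Nfkbie, Tnfaip3 and Tnip1, against 0.570% of all genes (124 of 21743). The ratio was above 0 on all 3 arrays for 5 members, those 4 and Nfkbiz, against 14.1% of all genes (3064 of 21721). With arrays centered on their median in place of loess, 0 members were above 0 on all 3 arrays. The median of all genes was then −0.41, 0.43 and −0.35 in tumors 1, 2 and 3. The share of all genes above 0 on all 3 arrays was not computed for this setting. Without tumor 2, limma called 4 members higher, along with 569 of all genes. No member was called lower by limma or the rank product, against 0.235% of all genes by the latter (51 of 21721), and none was below 0 on all 3 arrays, against 13.6% (2947 of 21721). At such shares about 1 or none of 9 genes would be expected.

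The median log2 ratio of the 9 members was 0.12, beside −0.00196 for all genes tested, and with median centering it was −0.0032, beside −0.11 for all genes. In tumors 1, 2 and 3 the median of the members was 0.20, 0.27 and 0.22, beside −0.01, 0.01 and −0.01 for all genes. Thus 7, 8 and 7 of the 9 members were above 0 in the single tumors. The members spread widely around this median, from 0.02 for Nfkbib to 0.77 for Nfkbia.

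**Figure D1:**
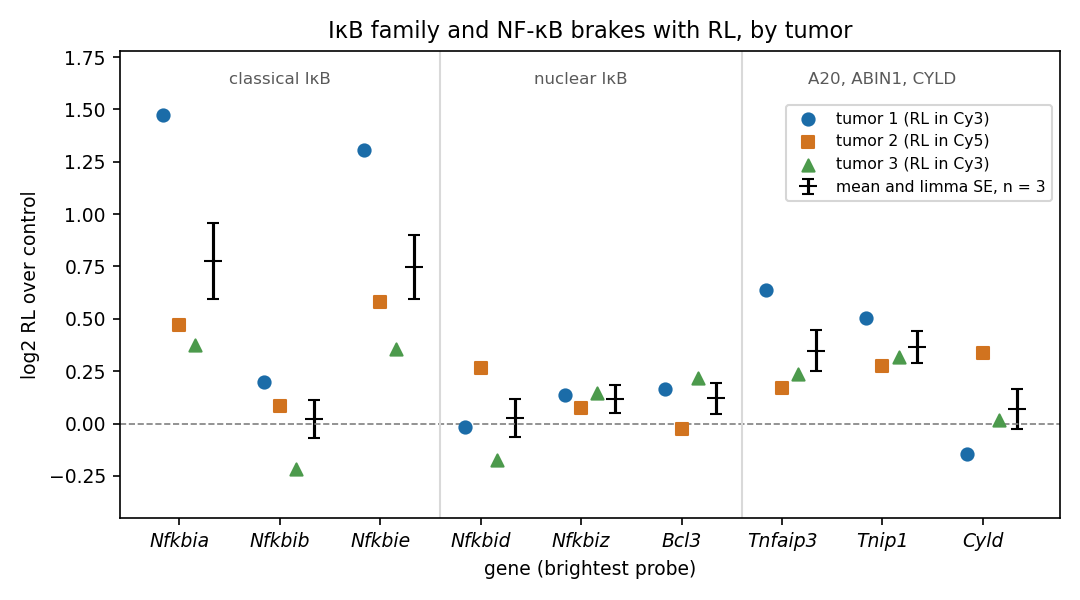
Log2 ratio of RL over control (y axis) for the brightest probe of each of the 9 genes (x axis), with 1 point for each tumor and the mean with its SE from limma (n = 3 tumors). Nfkbia and Nfkbie are the highest genes in each tumor, and their point for tumor 1 (1.47 and 1.31) lies far above those for tumors 2 and 3.

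The sequences before the transcription start are shown for the 4 members called higher with the dye term and, for contrast, for Nfkbib, the remaining classical IκB gene. They come from RefSeq (GRCm38.p6), whose promoter table holds 8 of the 9 members in 11 windows, the other member being Nfkbiz. Each line gives the 250 bases upstream of the start, 5′ to 3′ on the strand of the gene, and capitals mark matches to the κB consensus motif on either strand, with overlapping matches joined. The windows are chr12:55492648-55492897 (minus strand) for Nfkbia, chr17:45555450-45555699 (plus strand) for Nfkbie, chr11:54962941-54963190 (minus strand) for Tnip1, chr10:19015411-19015660 (minus strand) for Tnfaip3 and chr7:28766645-28766894 (minus strand) for Nfkbib.
Nfkbia: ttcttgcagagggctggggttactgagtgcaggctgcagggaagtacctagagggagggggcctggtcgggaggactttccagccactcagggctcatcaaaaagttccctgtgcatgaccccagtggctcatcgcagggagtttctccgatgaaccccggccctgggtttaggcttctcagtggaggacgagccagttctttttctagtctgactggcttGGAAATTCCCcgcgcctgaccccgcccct
Nfkbie: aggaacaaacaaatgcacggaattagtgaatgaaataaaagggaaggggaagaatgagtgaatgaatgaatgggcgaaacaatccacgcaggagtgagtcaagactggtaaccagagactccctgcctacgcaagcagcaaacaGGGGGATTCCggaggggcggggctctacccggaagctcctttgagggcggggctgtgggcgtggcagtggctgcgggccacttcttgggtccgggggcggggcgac
Tnip1: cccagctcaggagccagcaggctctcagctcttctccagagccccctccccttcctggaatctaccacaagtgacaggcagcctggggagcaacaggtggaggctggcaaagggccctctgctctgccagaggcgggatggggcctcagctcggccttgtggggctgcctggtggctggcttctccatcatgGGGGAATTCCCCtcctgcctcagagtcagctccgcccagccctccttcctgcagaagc
Tnfaip3: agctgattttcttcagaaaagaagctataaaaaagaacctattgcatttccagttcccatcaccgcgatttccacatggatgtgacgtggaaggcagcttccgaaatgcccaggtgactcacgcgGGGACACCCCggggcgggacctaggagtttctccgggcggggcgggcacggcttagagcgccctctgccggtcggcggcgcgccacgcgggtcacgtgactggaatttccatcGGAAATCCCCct
Nfkbib: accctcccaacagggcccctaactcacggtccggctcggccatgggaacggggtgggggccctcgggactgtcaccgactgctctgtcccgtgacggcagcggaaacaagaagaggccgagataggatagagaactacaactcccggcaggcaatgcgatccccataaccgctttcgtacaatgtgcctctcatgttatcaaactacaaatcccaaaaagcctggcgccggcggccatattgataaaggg
The match of Nfkbia ended 20 bases before the start and that of Nfkbie 97 bases before it. Tnip1 had 3 overlapping matches that form 1 palindromic run ending 47 bases before the start. Tnfaip3 had 1 match that ended 116 bases and 1 that ended 3 bases before the start, and the window of its other listed start had none. Nfkbib and Bcl3 had no match in their windows. Cyld had 1 match and Nfkbid had 2 in 1 of its 3 windows, although neither gene was called higher with the dye term. In all, 6 of the 11 windows held a match, beside 7.25% of the 32851 promoter windows in the table. A match only says that these letters are present, and binding of NF-κB was not measured here.

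Nfkbia encodes IκBα, the inhibitor known for its rapid resynthesis after NF-κB activation. In log2 intensity after normalization, its probe read 13.30, 13.58 and 13.93 in the control channels of tumors 1, 2 and 3, and 14.77, 14.06 and 14.31 in the RL channels. RL was therefore above control within each tumor, and each of the RL values exceeded all of the control values. Such a separation was found for 2 of the 9 members, Nfkbia and Nfkbie, and for 1.54% of all genes (334 of 21721). The log2 ratio was 1.47, 0.47 and 0.37, or 2.78-fold, 1.39-fold and 1.30-fold. The mean of 0.77 (SE 0.18, n = 3) was the 6th highest of all genes tested, with an adjusted p of 0.347 by limma. Its pfp was 0.00122, and with the dye term the mean was 0.70 (SE 0.11, adjusted p = 0.000199 by limma).

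Nfkbie encodes IκBε, an inhibitor that binds mainly RelA and c-Rel dimers. Its probe read 8.67, 9.18 and 9.74 in the control channels and 9.97, 9.76 and 10.10 in the RL channels of tumors 1, 2 and 3. Here too, all RL values were above all control values. The control values of Nfkbie spanned 1.07 log2 units over the tumors and the RL values 0.34, whereas for Nfkbia these spans were 0.64 and 0.71. The spans rest on a single culture of each tumor and condition and were not tested. The log2 ratio of Nfkbie was 1.31, 0.58 and 0.36, or 2.47-fold, 1.50-fold and 1.28-fold, highest where the control value was lowest. By brightest probe the same held for Nfkbia, Tnip1 and Tnfaip3, but not for the other members. The control value is itself part of the ratio. The mean of Nfkbie was 0.75 (SE 0.15, n = 3), the 7th highest of all genes, with an adjusted p of 0.253 by limma, a pfp of 0.0017 and, with the dye term, a mean of 0.71 (adjusted p = 5.40e-05 by limma).

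For both genes the size of the ratio rested in part on tumor 1. Without tumor 1, the mean of Nfkbia was 0.42 and that of Nfkbie 0.47, with an adjusted p of 0.721 for each by limma on the remaining pair of arrays. Without tumor 2, the array with RL in Cy5, the means were 0.92 and 0.83, with an adjusted p of 1.21e-05 and 1.86e-05, but the remaining arrays then share 1 dye order. Over all 17 alternatives the adjusted p, or the pfp for the rank product, ranged from 1.21e-05 to 1 for Nfkbia and from 1.86e-05 to 1 for Nfkbie. Whether the tumors differ in their response was not tested, as each was hybridized once.

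Nfkbib encodes IκBβ, the classical inhibitor whose gene is known to respond little to NF-κB. Its brightest probe read 11.78, 11.65 and 12.04 in the control channels and 11.98, 11.74 and 11.82 in the RL channels of tumors 1, 2 and 3, so the groups overlapped. The log2 ratio was 0.20, 0.09 and −0.22, above 0 in tumors 1 and 2 and below 0 in tumor 3. Its mean of 0.02 (SE 0.09, adjusted p = 0.974 by limma) was matched or exceeded by 39.3% of all genes, and it changed sign under other settings. A dimmer probe gave 0.00316, 0.29 and −0.18, and the dimmest gave 0.08, 0.20 and 0.15. The 3 probes thus had small mean ratios of 0.02, 0.04 and 0.15, and only the dimmest was above 0 in each tumor.

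The atypical IκB proteins act in the nucleus, where they bind p50 or p52 homodimers on DNA and can activate as well as repress transcription. Bcl3, which binds these homodimers as a coregulator, had log2 ratios of 0.17, −0.02 and 0.22 in tumors 1, 2 and 3. The mean was 0.12 (SE 0.08, adjusted p = 0.807 by limma), and the only value not above 0 was that of the array with RL in Cy5. Without tumor 2 the mean of Bcl3 was 0.19, and without tumor 3 it was 0.07. Nfkbiz encodes IκBζ, which is induced by inflammatory signals and is needed for secondary NF-κB targets. Its control channels read 8.64, 8.70 and 9.07 and its RL channels 8.77, 8.78 and 9.21, a ratio of 0.13, 0.07 and 0.14. The ratio of Nfkbiz was thus small but similar in the 3 tumors (SD 0.04), the smallest spread of the 9 members, with a mean of 0.12 (SE 0.07, adjusted p = 0.791 by limma).

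Nfkbid encodes IκBNS, a nuclear inhibitor best known from lymphocytes and macrophages. Its ratio was −0.02, 0.27 and −0.17 in tumors 1, 2 and 3, above 0 only where RL was in Cy5. The mean was 0.03 (SE 0.09, adjusted p = 0.969 by limma), and 0.09 with the dye term (adjusted p = 0.824 by limma). All 3 atypical members had a pfp of 1 for a higher value. When each array was centered on its median in place of loess, the means of Bcl3, Nfkbiz and Nfkbid were −0.06, −0.0032 and −0.11, a setting that moved the median of all genes to −0.11. Relative to that median they were 0.05, 0.11 and 0.0058.

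Tnfaip3 encodes A20, which edits ubiquitin chains on signaling adaptors upstream of the IκB kinase complex. Its probe read 10.26, 11.35 and 12.48 in the control channels and 10.89, 11.52 and 12.71 in the RL channels of tumors 1, 2 and 3. RL was above control within each tumor, but the tumors differed more from each other than RL from control. The log2 ratio was 0.64, 0.17 and 0.23, with a mean of 0.35 (SE 0.10, n = 3), the 85th highest of all genes. The adjusted p was 0.462 by limma and 0.0434 with the dye term, and the pfp was 0.310.

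The level of Tnfaip3, taken as the mean of both channels, spanned 2.02 log2 units or 4.05-fold over the 3 tumors. Only 1.68% of all genes tested spanned as much, and the median span was 0.27. The other 8 members spanned between 0.23 (Nfkbib) and 0.63 (Nfkbid), and 16.3% of all genes spanned at least as much as Nfkbid. Both channels of an array moved together for Tnfaip3, which had its lowest level and its highest ratio in tumor 1, and its highest level in tumor 3. These levels have no replicate within a tumor and were not tested.

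**Figure D2:**
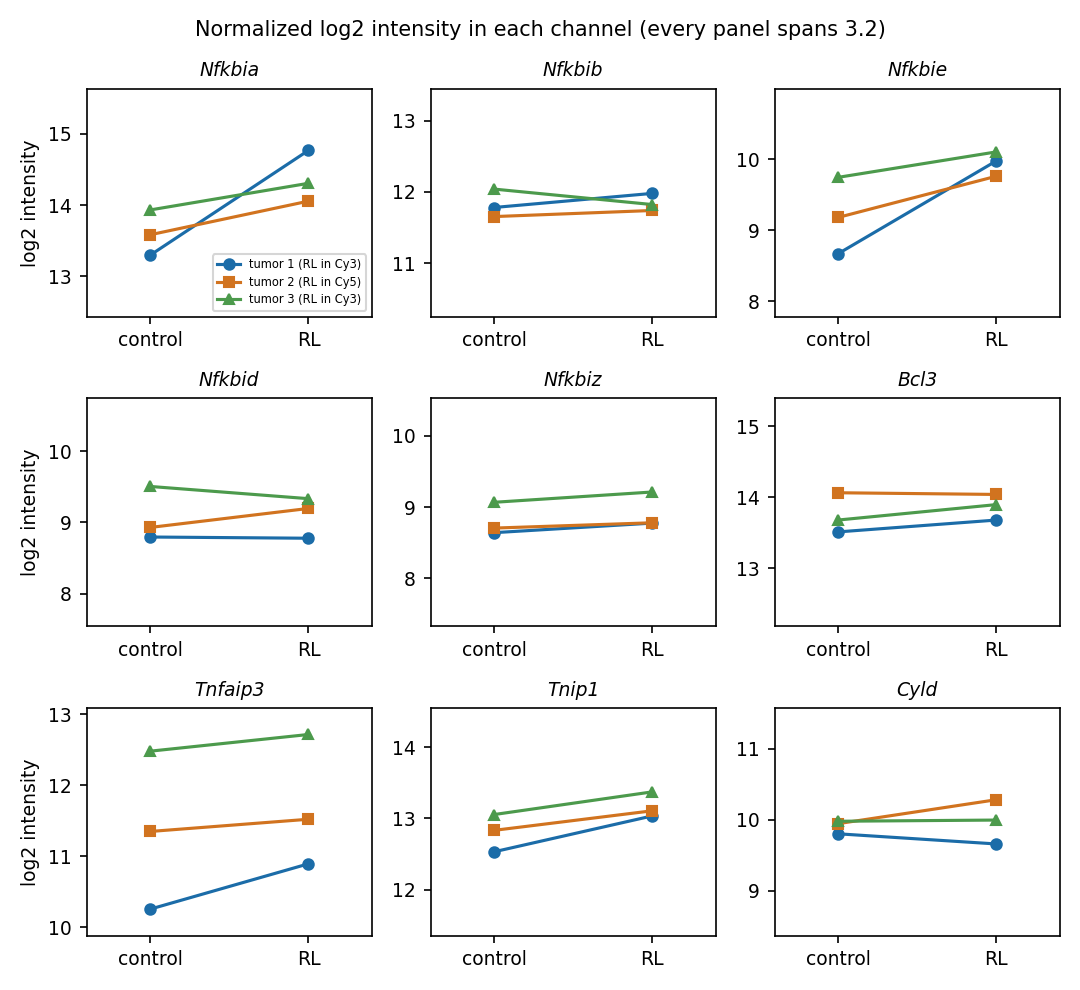
Log2 intensity after normalization (y axis) in the control and RL channel (x axis) for the brightest probe of each gene, with a line for each tumor. All panels span the same range of intensity, so slopes are drawn to the same scale, while heights cannot be compared between panels. The offset used in processing compresses the slopes of dim probes. The lines of Nfkbia, Nfkbie, Tnip1, Tnfaip3 and Nfkbiz go up in each tumor, and those of Tnfaip3 are set apart by tumor.

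Tnip1 encodes ABIN1, a ubiquitin-binding adaptor that works with A20. Its brightest probe read 12.53, 12.83 and 13.06 in the control channels and 13.04, 13.11 and 13.37 in the RL channels of tumors 1, 2 and 3. The values of the groups overlapped between tumors, while RL was above control in each tumor. The log2 ratio was 0.51, 0.28 and 0.32, with a mean of 0.37 (SE 0.08, n = 3), the 74th highest of all genes. The adjusted p was 0.253 by limma and 0.00918 with the dye term, and the pfp was 0.157. A dimmer probe of Tnip1 gave 0.66, 0.13 and 0.27 with a mean of 0.35, so both probes placed tumor 1 highest and tumor 2 lowest. Leaving out tumor 1 gave a mean of 0.30 for Tnip1 and of 0.20 for Tnfaip3. Leaving out tumor 2 gave 0.41 and 0.44, with adjusted p of 0.00182 and 0.00188 by limma. These were the lowest over all alternatives, which reached 1 for both. Without tumor 2 the remaining arrays share 1 dye order, and limma called 569 of all genes higher.

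Cyld encodes a deubiquitinase that removes linear and lysine-linked chains from NF-κB adaptors and is known as a tumor suppressor. The brightest probe gave log2 ratios of −0.14, 0.34 and 0.02 in tumors 1, 2 and 3, with a mean of 0.07 (SE 0.10, adjusted p = 0.915 by limma). Its dimmer probe gave 0.10, 0.13 and 0.18, with a mean of 0.13. The probes of Cyld therefore differed in tumor 1, where the brightest was below 0 and the dimmer above it, and the brightest also fell below 0 on average without tumor 2 (−0.06) and with median centering (−0.07). Fitted probe by probe over all probes bright enough, the adjusted p was 0.913 and 0.734 by limma.

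**Figure D3:**
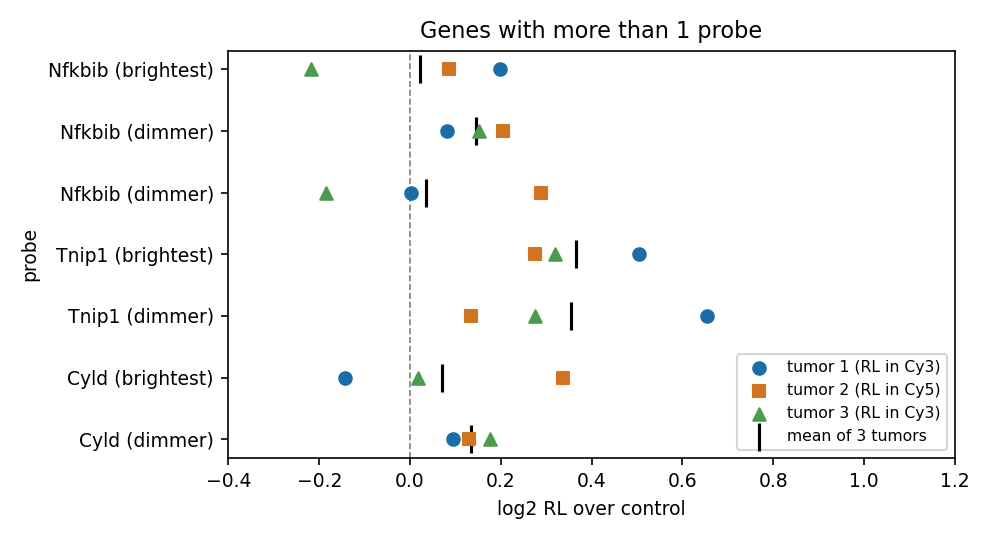
Log2 ratio of RL over control (x axis) for each probe of the 3 members with more than 1 probe (y axis), with 1 point for each tumor and a bar at the mean of the 3 tumors. Both probes of Tnip1 are above 0 in each tumor, while the brightest probes of Nfkbib and Cyld lie on both sides of 0.

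Ordered by their mean ratio, the members fell into steps. Nfkbia and Nfkbie differed by less than the SE of either, and they had the highest ratios of the 9 members in each of the 3 tumors. Tnip1 and Tnfaip3 followed and also differed by less than the SE of either. Between Nfkbie and Tnip1, and between Tnfaip3 and Bcl3, the step in the mean was larger than the SE of both neighbours. Bcl3, Nfkbiz, Cyld, Nfkbid and Nfkbib came last, and each differed from the next by less than its SE. The steps rested largely on tumor 1, and without it the first shrank from 0.38 to 0.13 and the second from 0.23 to 0.03, with Cyld (0.18) next below Tnfaip3 (0.20). In tumor 2 Cyld (0.34) and Nfkbid (0.27) were above Tnfaip3 (0.17). These differences between genes were not tested.

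Among 14025 named genes outside the members with values on all 3 arrays, the genes with the 3 log2 ratios closest to those of Nfkbia, by Euclidean distance, were Spns3 (0.26), Nfkb2 (0.29), C1qtnf1 (0.29), Relb (0.40) and Tnfaip2 (0.43). The distance between Nfkbia and Nfkbie themselves was 0.20. The closest genes to Nfkbie were Spns3 (0.09), Nfkb2 (0.23), C1qtnf1 (0.25), Fcgbp (0.30) and Relb (0.36). Spns3, of the spinster family of transporters, had ratios of 1.23, 0.55 and 0.34 in tumors 1, 2 and 3. Nfkb2 had ratios of 1.25, 0.43 and 0.20 and Relb of 1.15, 0.29 and 0.21. The likeness rests on 3 arrays and is given as a description.

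Other genes of the pathway were taken from lists written by function, with earlier results of these data known. Their counts and medians are therefore given as a description. Of the 5 NF-κB subunit genes 4 were tested and Rel was not bright enough. None passed limma's adjusted p of 0.05, 1 (Nfkb2) passed the pfp and 2 (Nfkb2 and Relb) passed with the dye term. Nfkb2, the precursor p100 that also acts as an IκB, had a mean log2 ratio of 0.63 (SE 0.17, adjusted p = 0.422 by limma, pfp = 0.0273). Relb, the partner of its p52 product, had a mean of 0.55 and Rela of 0.30. Rela had ratios of 0.45, 0.04 and 0.41 in tumors 1, 2 and 3, and its mean was 0.10 with median centering and 0.43 without tumor 2. Nfkb1, which encodes the precursor p105, had ratios of 0.07, 0.06 and −0.08 and a mean that changed sign under 3 settings. A dimmer probe of Nfkb1 gave 0.12, 0.11 and 0.03, with a mean of 0.09. The median of the subunits was 0.43 (0.24 without tumor 1 and 0.26 with median centering), and 3 of the 4 were above 0 on all 3 arrays by their brightest probe. Without tumor 1 the mean was 0.31 for Nfkb2 and 0.25 for Relb.

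Of the 21 kinases, ligases and adaptors that act upstream of the members, all were tested and 0 passed limma's adjusted p, with 3 higher at an unadjusted p under 0.05 and 0 lower. By pfp 1 was higher, and 2 were higher with the dye term. Their median was 0.02 (−0.09 with median centering and −0.009 without tumor 2), with 4 genes above and 4 below 0 on all 3 arrays. The highest were the adaptors Traf2 (mean 0.52, pfp = 0.0117) and Traf3 (0.38), which bind RANK and restrain the alternative arm of the pathway, and the kinase Chuk (0.25, with −0.12 in tumor 2). Chuk was 0.13 without tumor 3, 0.10 with median centering and 0.44 without tumor 2, where limma called it (adjusted p = 0.000813, in a range up to 1). A dimmer probe of Traf2 had a mean of 0.20, and averaged over its probes Traf2 (0.36) was below Traf3. The lowest was the kinase Ikbkb with −0.14, but it was −0.04 without tumor 3, and another gene was the lowest under 4 of 17 alternatives.

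The 14 other brakes, which were not among the members, were all tested, and 0 passed limma's adjusted p, the pfp or the dye term in either direction. At an unadjusted p under 0.05, 1 was higher. Their median was 0.03 (−0.11 with median centering, 0.05 without tumor 2 and 0.0037 without tumor 3), with 2 genes above and 1 below 0 on all 3 arrays. Tnip3, which encodes another ABIN protein, was the highest with ratios of 0.16, 0.20 and 0.24 and a mean of 0.20 (SE 0.07, adjusted p = 0.565 by limma), which was 0.37 with normexp at offset 0, 0.31 with the authors' ratios and 0.47 with the processed signals. Itch and Spata2 each had a mean of 0.07, which was below 0 with median centering. The 2 dimmer probes of Spata2 had means of −0.04 and 0.01, and the mean over its probes was 0.01. Pdlim2, a ligase for nuclear RelA, was the lowest with −0.13 (−0.09 without tumor 1, when another gene was lower).

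Of 25 NF-κB target genes 23 were tested, and Ubd was the only one past limma's adjusted p of 0.05. By pfp 4 were higher and 1 lower, and with the dye term 8 were higher and 1 lower. These include Ubd and Cxcl10, which were not well above background in all 6 channels, and without both the higher counts are 2 and 6. The median was 0.28 (0.12 with median centering, 0.16 with no filter or the stricter filter and 0.18 without tumor 1), and 14 of the 23 were above 0 on all 3 arrays, Ubd and Cxcl10 among them. C3 had the highest mean (1.01, and 0.56 without tumor 1), followed by Ubd (0.92, SE 0.09, adjusted p = 0.0229 by limma) and Traf1 (0.70), and Lcn2 had the lowest (−0.47, with 0.24 in tumor 2), which was −0.29 without tumor 1 or tumor 3 and −0.82 without tumor 2. The mean of Ubd differed between settings, with 1.50 from the authors' ratios, 1.88 with normexp at offset 0 and 2.29 with the processed signals, and it was above that of C3 under 7 of 16 alternatives. Ubd was not well above background in the control channel of tumor 1, so its ratio there and its mean are less sure, and the stricter filter drops it. Its adjusted p by limma was above 0.05 under 6 of 16 alternatives, without tumor 1 (0.115) and without tumor 3 (0.0774) among them, in a range up to 1. The reference genes Hprt, Tbp and Ppia had means of 0.06, −0.04 and −0.04. Their ratios in single tumors were between −0.28 and 0.31, and in tumor 2 all 3 were above 0. The mean of each changed sign under at least 2 settings.

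**Figure D4:**
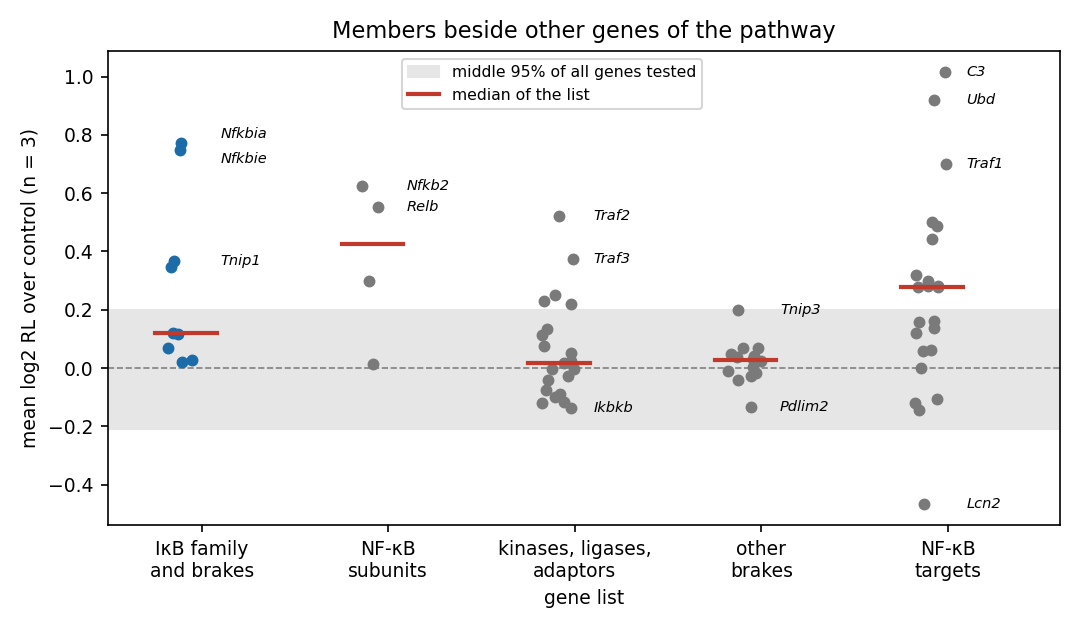
Mean log2 ratio of RL over control (y axis, n = 3 tumors) of each gene tested in the IκB family and brakes and in 4 further lists (x axis), with the median of each list as a bar and the middle 95% of all genes tested shaded. The median is 0.12 for the members, 0.43 for the subunits and 0.28 for the target genes, and 0.02 and 0.03 for the other lists.

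**Figure D5:**
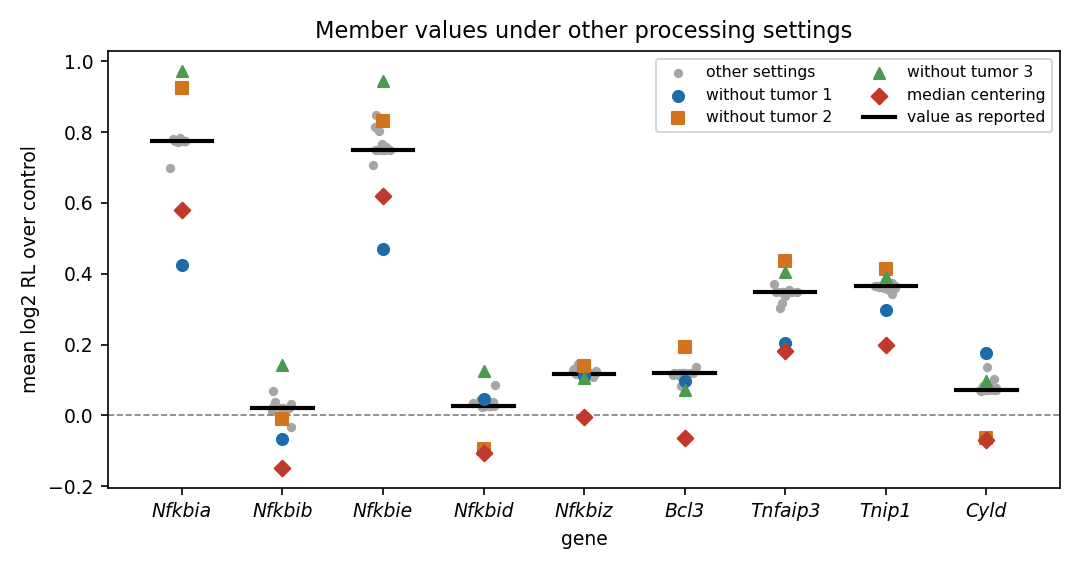
Mean log2 ratio of RL over control (y axis) of each member (x axis) as reported and under 17 other settings. Nfkbia, Nfkbie, Tnfaip3 and Tnip1 are above 0 under each of these, with the lowest values without tumor 1 or with median centering, while the other 5 genes cross 0 under at least 1 setting.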

How the data were processed

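RNA of 6 cultures of PyMT tumor cells was measured on 3 two-color Agilent arrays, all from 1 slide and 1 scan. The authors read the spots with Agilent Feature Extraction 10.7.3.1 and deposited the median intensity of each spot and of its local background per dye, uncorrected, with log10 ratios of Cy5 over Cy3 from the processed signals. The authors also deposited normalized log2 ratios. The methods give ratios as condition over control, but set against the scanner values these ran as Cy5 over Cy3, which by the labeled dyes is control over RL for tumors 1 and 3 (r = −0.96 with RL over control for each). For the alternative with these ratios the sign was turned on those 2 arrays. As deposited, the column medians were 0.00244, −0.0011 and 0.000690 for tumors 1, 2 and 3.

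The processing in R 4.3.3 (limma 3.58.1) was normexp, intensity and spatial loess, then Aquantile, steps named in the study's methods, with an offset of 50 and spans of 0.3 and 0.1 set here. The offset compresses ratios of dim probes. Outlier spots and control spots were left out. Accessions matched to RefSeq (GRCm38.p6) named 28026 of 55681 probes. A probe was kept where the scanner software put it well above background in the 3 RL or the 3 control channels, and a gene was read from its brightest such probe. Log2 ratios were fitted with lmFit and eBayes and adjusted by Benjamini-Hochberg over all genes. Pairing of cultures is by array. The rank product used 1000 permutations. Programs were tested on simulated data. The number of arrays limits the precision.

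Members and lists were chosen with earlier results of these data known. Named genes are all members, from each list those past the threshold or otherwise the 3 highest and the lowest mean, the 5 nearest patterns of Nfkbia and of Nfkbie, 3 reference genes and cell-type markers. The alternatives changed the test, dye term, intensity trend, background correction, signals, loess, Aquantile, filter, outlier spots, probe averaging, the authors' ratios and the tumors included.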

Additional observations from a re-analysis of the deposited data

How the results depend on the processing

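Under 17 alternatives the mean ratios of Nfkbia (0.42 to 0.97), Nfkbie (0.47 to 0.94), Tnfaip3 (0.18 to 0.44) and Tnip1 (0.20 to 0.41) kept their sign, while 10 of the 153 values of the members changed it, all in the other 5. None of the 9 was past limma's adjusted p in the main analysis. The rank product, the intensity trend and leaving out Aquantile do not alter a mean ratio. The cause of these changes was not tested. With RL in Cy5 on 1 of 3 arrays, an effect of the dye and of tumor 2 cannot be told apart. All member probes were well above background in all 6 channels.

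Genes called higher and lower, 1 and 5 by limma, were 37 and 51 by rank product. A dye term gave 124 and 167, an intensity trend 9 and 21, normexp at offset 0 gave 0 and 2, and no background correction 6 and 12. The processed signals and median centering gave 0 and 0, and both no filter and the stricter filter 0 and 3. The authors' ratios gave 2 higher, and the mean over probes 3 lower. With a tumor left out the counts ranged from 0 to 569 higher and from 1 to 928 lower, the highest without tumor 2. Members called higher, 0 by limma, were 2 by rank product, 4 with a dye term and 0 to 4 with a tumor left out.

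Median centering left 0 members above 0 on all arrays. It gave −0.0032 for the median of the members, −0.094 for that of the kinase list, −0.11 for the other brakes and 0.12 for the targets. For single genes it gave −0.15 for Nfkbib, −0.11 for Nfkbid, −0.0032 for Nfkbiz, −0.063 for Bcl3, −0.0695 for Cyld, −0.12 for Nfkb1, −0.089 for Itch, −0.088 for Spata2 and −0.13 for Hprt. The processed signals gave −0.032 for Nfkbib, 0.081 for Ppia and 0.0011 for the median of the kinase list, which was 0.044 with normexp at offset 0. The dye term gave 0.011 for Tbp, 0.048 for Ppia and 0.19 for the median of the targets, which was 0.16 with no filter or the stricter filter.

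With a tumor left out the median of the members ranged from 0.14 to 0.19, the median of the kinase list from −0.009 to 0.028, that of the targets from 0.18 to 0.28, Nfkbib from −0.066 to 0.14, Nfkbid from −0.095 to 0.13, Cyld from −0.063 to 0.18, Nfkb1 from −0.013 to 0.061, Spata2 from −0.022 to 0.14, Hprt from −0.0053 to 0.12, Tbp from −0.15 to 0.073 and Ppia from −0.21 to 0.058.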
